A study of Homo sapiens with 2 samples.

Results

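Chromosome 16 carried 1150 of the 20085 peaks that a PML-RARA antibody gave in NB4 cells, all placed on the build hg19. NB4 cells are an established line from a human acute promyelocytic leukemia and express the PML-RARA fusion, and no treatment of them was stated. The peaks were chosen by the chromosome that the list gives, so every peak called there is described, and their number and place are themselves the readout. The assay was CUT&Tag, in which a transposase tethered to the antibody inserts sequencing adapters into nearby chromatin, done in 2 replicates of 1 group. The authors merged both replicates into 1 peak list, with no value for each replicate, so no spread between samples can be given and no difference described here was tested. No control antibody, input library or DNA copy number was set beside the peaks, and the sequencing depth is unknown.

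PML-RARA joins the nuclear body protein PML to the retinoic acid receptor alpha, and it binds DNA at retinoic acid response elements and at sites shared with myeloid factors such as PU.1, where it recruits co-repressors. Chromosome 16 is of interest in myeloid cells for several of its genes. Its distal long arm holds IRF8, a factor that directs progenitors toward monocytes and dendritic cells, and CBFA2T3, a transcriptional co-repressor of the ETO family. Its middle long arm holds CBFB, the partner of the RUNX factors, and its proximal short arm holds the leukocyte integrin genes ITGAL, ITGAM and ITGAX.

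The sequence under the peaks was not used here, because no hg19 genome was at hand. To show the kind of DNA in these neighbourhoods, the 250 bases before the start of 5 genes are given from the promoter table of RefSeq (GRCh38.p14), 5′ to 3′ on the strand of the gene, with each CpG in capitals. The first 3 genes lie in the distal bands with the most peaks per Mb, and ITGAM in the peak-rich proximal short arm. CDH8, a neuronal cadherin, lies in the band that holds the longest peak-free stretch outside the centromere.
IRF8 (16q24.1, plus strand): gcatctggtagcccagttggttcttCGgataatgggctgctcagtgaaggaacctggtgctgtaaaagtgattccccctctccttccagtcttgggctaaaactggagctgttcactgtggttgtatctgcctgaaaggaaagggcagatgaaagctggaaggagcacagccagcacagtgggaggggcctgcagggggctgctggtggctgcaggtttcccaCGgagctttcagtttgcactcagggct
GSE1, a subunit of a co-repressor complex with histone deacetylases (16q24.1, plus strand): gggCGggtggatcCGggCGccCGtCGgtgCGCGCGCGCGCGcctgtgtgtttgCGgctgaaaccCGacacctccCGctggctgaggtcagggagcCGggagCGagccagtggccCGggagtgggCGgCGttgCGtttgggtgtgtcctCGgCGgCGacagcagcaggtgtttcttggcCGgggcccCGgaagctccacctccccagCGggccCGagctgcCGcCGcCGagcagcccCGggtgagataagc
CBFA2T3 (16q24.3, minus strand): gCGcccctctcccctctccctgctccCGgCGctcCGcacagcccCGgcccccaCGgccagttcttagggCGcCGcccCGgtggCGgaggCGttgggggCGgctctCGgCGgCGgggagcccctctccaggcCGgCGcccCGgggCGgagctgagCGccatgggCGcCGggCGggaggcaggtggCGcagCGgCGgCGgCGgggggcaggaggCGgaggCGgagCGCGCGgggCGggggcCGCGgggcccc
ITGAM (16p11.2, plus strand): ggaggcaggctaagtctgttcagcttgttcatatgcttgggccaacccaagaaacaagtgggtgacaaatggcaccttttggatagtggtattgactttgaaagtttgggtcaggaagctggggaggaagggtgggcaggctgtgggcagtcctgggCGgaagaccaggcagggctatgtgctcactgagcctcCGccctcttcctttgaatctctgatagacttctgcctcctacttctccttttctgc
CDH8 (16q21, minus strand): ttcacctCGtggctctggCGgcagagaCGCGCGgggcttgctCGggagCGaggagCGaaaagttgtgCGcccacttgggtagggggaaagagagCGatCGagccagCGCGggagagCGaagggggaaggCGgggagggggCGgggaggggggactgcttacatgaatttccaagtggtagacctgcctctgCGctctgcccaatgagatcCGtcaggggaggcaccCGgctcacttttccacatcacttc
The promoters of GSE1 and CBFA2T3 held 31 and 36 CpGs, that of CDH8 held 19, and those of IRF8 and ITGAM held 2 each. Among the sequences shown, CpG-rich and CpG-poor ones thus both lay in bands with many peaks, and a CpG-rich one in a band with few. Each stands before a single listed start of its gene, and other starts were not looked at. Whether a peak covers any of these promoters was not measured.

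The same promoter table gave a wider description of the bands. It held only part of the protein-coding genes, with 62 of 81 in 16q24.1 to 16q24.3 and 504 of 701 in the other bands used. In 62 protein-coding promoters of 16q24.1 to 16q24.3 the median GC content was 73.2%, against 65.6% in 504 promoters of the other bands used on the chromosome. The median ratio of observed to expected CpG was 0.913 in the distal bands and 0.804 in the others. Over the whole chromosome the median GC content was 66.4% (611 promoters), against 62.0% on the other chromosomes (15200 promoters). The retinoic acid receptor half-site AGGTCA, searched on both strands, was found in 9.68% of the promoters of the distal bands and in 10.7% of those of the other bands, against 10.3% of all promoters. The distal bands differed among themselves, with 4 of 18 promoters in 16q24.1, 2 of 12 in 16q24.2 and 0 of 32 in 16q24.3, the band with the most peaks per Mb. The half-site AGTTCA was found in 4.84% of the distal promoters, 3.77% of the others and in 7.22% of all promoters, and GAGGAA, the core of many PU.1 sites, in 17.7% of the distal promoters, 20.8% of the others and 23.5% of all. Of the promoters shown, GSE1 held AGGTCA 167 bases before its start and ITGAM held GAGGAA 127 bases before its start, and the others held none of these motifs. None of the motifs contains another, and a match describes the letters only.

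Peaks were dense on chromosome 16 and of ordinary strength. The chromosome had 14.8 peaks per Mb, against 6.92 on the other chromosomes (1 to 22 and X), a ratio of 2.13, counted per Mb outside centromeric, variable and stalk bands. It ranked 4 of 23 chromosomes by this density, next to chromosomes 17 (17.2 per Mb) and 20 (14.4 per Mb) and above chromosome 15 (8.71 per Mb). Its peaks covered 1391 kb, or 1.78% of the counted length, against 0.815% on the other chromosomes. The total signal of a peak was read from a column that the authors headed width, as the coverage added up along the peak. It ran on chromosome 16 about a median of 6240.5 (interquartile range 3619 to 14293), against 6496.5 (3765 to 13861) on the others. The median length was 886.5 bp on chromosome 16 and 893 bp on the others, and the median of the maximum signal was 20 and 22. Of its peaks 113, or 9.83%, were among the strongest of the list, those at or above the 90th percentile of total signal, where 10.0% of all peaks on the chromosomes stood. Peaks of at least 4 kb numbered 24 (2.09%), against a share of 2.12% over all chromosomes. The ratio of chromosome 16 to the others was thus 2.13 for peaks per Mb and 0.961 for the median total signal.

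The peaks were gathered in a few stretches. Of 79 bins of 1 Mb with sequence outside the centromeric and variable bands, 17 had no peak and 11 had 1 or 2, and the median bin had 5 (interquartile range 1 to 22), against a median of 2 (0 to 8) in the bins of the other chromosomes. At least 20 peaks were found in 23 bins of the chromosome (29.1%), where 11.5% of all bins had as many. Those 23 bins held 938 peaks, or 81.6% of the chromosome, and the 10 fullest held 570 (49.6%). Most of them stood in groups. The first 5 Mb of the short arm held 58, 41, 52, 44 and 37 peaks per bin. The stretch from 29 to 32 Mb, at the proximal end of the short arm, held 33, 53 and 32. In the middle of the long arm the bins from 66 to 69 Mb held 20, 40 and 36. The distal long arm held 23, 84, 14, 42, 79 and 74 in the bins from 84 to 90 Mb, and 22 in the short last bin. The bin at 85 to 86 Mb was the fullest, ranking 8 among all bins of the list, and those at 88 to 89 and 89 to 90 Mb ranked 10 and 13. Other full bins stood alone, such as 57 to 58 Mb with 43 peaks between neighbours of 12 and 8, 11 to 12 Mb with 35 peaks between neighbours of 5 and 4, and 50 to 51 Mb with 22 between neighbours of 0 and 1.

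**Figure D1:**
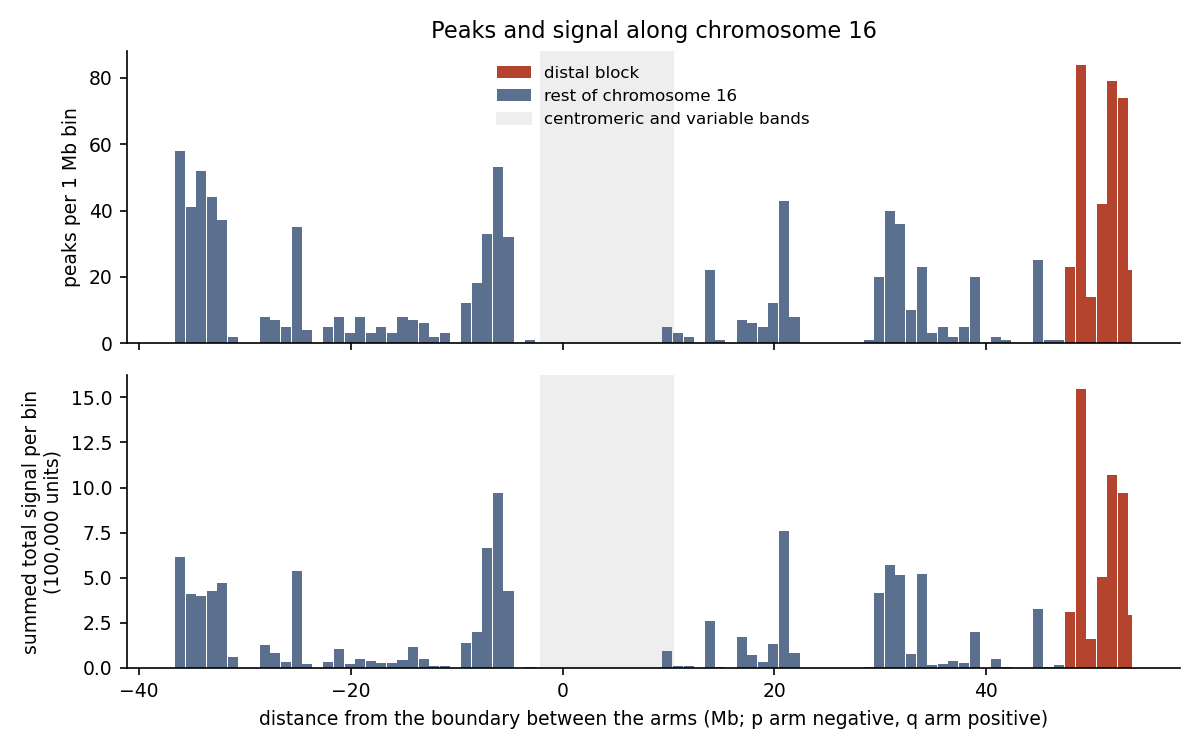
Peaks (top) and summed total signal (bottom) in each 1 Mb bin of chromosome 16, plotted by distance from the boundary between the arms, with the distal block from 84 Mb in red, the rest in blue and the centromeric and variable bands shaded. The fullest bin, with 84 peaks, lies in the distal block, and 17 unshaded bins are empty.

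The distal block, from 84 Mb to the q end, held peaks more densely than the rest, and it was set with this density known, so its count is a description. It held 338 peaks in 6.355 Mb, or 53.2 per Mb, against 812 peaks and 11.3 per Mb in the rest, a ratio of 4.69. The block thus made up 8.15% of the counted length, 29.4% of the peaks and 31.5% of the summed signal of the chromosome. Peaks covered 6.96% of its bases, against 1.32% of the rest. Against the q arm below 84 Mb, with 309 peaks at 8.35 per Mb, the ratio was 6.37. The opposite end of the chromosome was also dense: an equally long stretch from the tip of the short arm had 234 peaks, or 36.8 per Mb, and the block exceeded it 1.44-fold in peaks and 2.04-fold in summed signal.

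The q ends of chromosomes were compared over the same length. That length is the block's own, set with its density on chromosome 16 known, so the rank of this chromosome is a description. Chromosome 16 had the densest of 23, with 53.2 peaks per Mb in its last 6.355 Mb, followed by chromosomes 17 (42.3), 9 (34.8) and 20 (31.5), and the median q end had 16.4. Relative to the rest of its own chromosome, the q end of 16 ranked 7 of 23, since its ratio of 4.69 was lower than those of 6 others, led by chromosomes 21 (6.74), 9 (6.46) and 13 (5.88). The median ratio over chromosomes was 2.82, so that most q ends were denser than the rest of their chromosome.

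**Figure D2:**
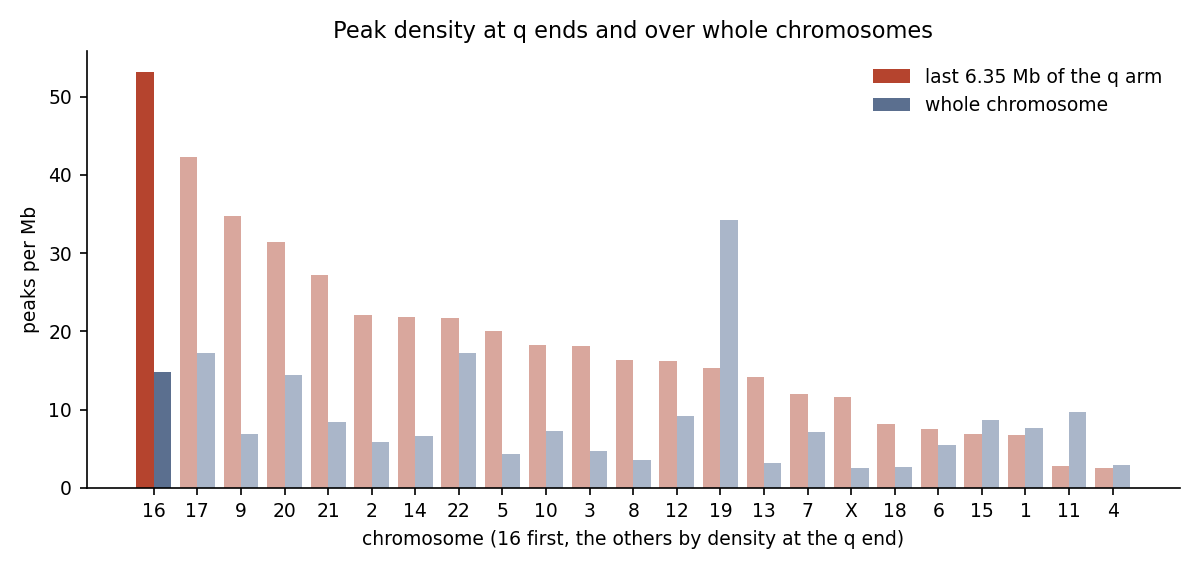
Peaks per Mb in the last 6.355 Mb of the q arm (red) and over the whole chromosome outside centromeric, variable and stalk bands (blue), for chromosome 16 and then the other 22 by density at the q end. Chromosome 16 stands highest at the q end with 53.2 per Mb and 4 of 23 over the whole chromosome. The length of the q end was set by the block of chromosome 16, with its density known.

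Within the block the peaks came in waves. In steps of 0.5 Mb from 84 Mb there were 4, 19, 33, 51, 9, 5, 16, 26, 8, 71, 40 and 34 peaks, and 22 in the last piece. Between the high steps at 85 to 86 Mb and at 88.5 to 90 Mb, the counts went down to 5 at 86.5 to 87 Mb and 8 at 88 to 88.5 Mb. The piece at 85 to 86 Mb carried a summed signal of 1544564, which ranked 9 among all bins of the list. The stretch from 87.5 to 88 Mb had 26 peaks with a median total signal of only 3752, while the 33 peaks from 85 to 85.5 Mb had a median of 10479.

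One by one, the peaks of the block had total signals like those in the rest of the chromosome, with somewhat lower maxima. The median total signal was 5981.5 (interquartile range 3311 to 14252) in the block and 6286 (3707 to 14302) in the rest of the chromosome. The median maximum was 17.5 against 21.5, and the median signal per base, the total divided by the length, was 6.25 against 7.38. The block held a larger share of weak peaks. Peaks with a total under 3000, near the lowest value of 2577 in the list, made up 16.6% of the block and 9.85% of the rest. Over all chromosomes their share was 10.6%. Below the first quartile of the list, 3755, were 32.2% of the block's peaks and 25.2% of the rest. Above the third quartile the shares were alike, 25.7% in the block and 25.7% in the rest. At or above the 90th percentile were 39 of the 338 (11.5%), against 74 of 812 (9.11%) in the rest and 10.0% of all peaks on the chromosomes. The first 6.355 Mb of the short arm, as crowded as it was, had 12 of 234 (5.13%). Weak peaks were common there too: 13.7% had a total under 3000, the median total was 5429, the median maximum 17 and the median signal per base 6.34. Peaks in the block were a little longer, with a median of 948 bp against 859 bp. The gap to the next peak had a median of 4183 bp in the block, 12214 bp in the rest of the chromosome and 15280 bp on the other chromosomes. In the first 6.355 Mb of the short arm it was 6768 bp.

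**Figure D3:**
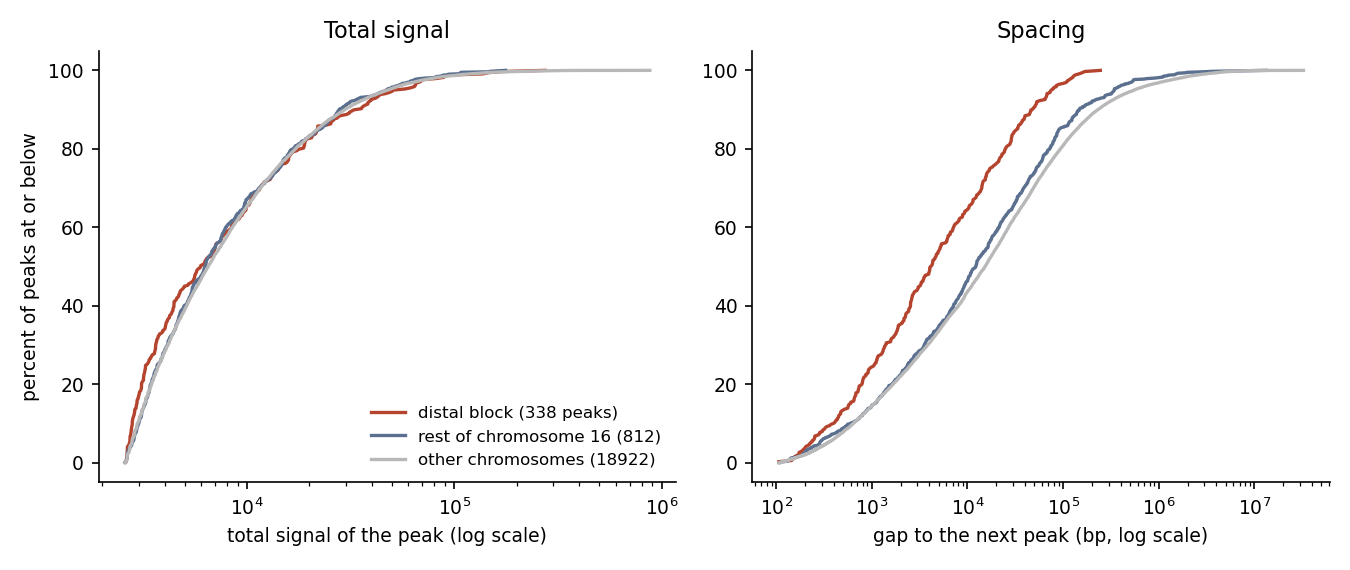
Cumulative share of peaks by total signal (left) and by gap to the next peak (right), both on log axes, for the distal block (red), the rest of chromosome 16 (blue) and the other chromosomes (grey). The curves of signal lie close together, while the gaps of the block are shorter, with a median of 4183 bp against 12214 bp in the rest.

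The arms had like densities and unlike layouts. The p arm held 503 peaks at 14.5 per Mb and the q arm 647 at 14.9 per Mb, a ratio of 0.974. The order of the arms depended on how length was counted: over whole arms, with the centromeric and variable bands included, the p arm had 13.74 and the q arm 12.04 per Mb, a ratio of 1.14, and the ratio was 1.05 when peaks within 1 kb were merged. The median total signal was 6321 in the p arm and 6208 in the q arm, and the median maximum was 22 and 19. Long peaks differed more: 4 of 503 peaks in the p arm (0.795%) reached 4 kb, against 20 of 647 in the q arm (3.09%). The share over all chromosomes was 2.12%. Of those 20, 9 lay in the block (2.66% of its peaks) and 11 in the q arm below it (3.56%). The strongest peaks were shared out as 42 of 503 (8.35%) in the p arm and 71 of 647 (11.0%) in the q arm, against 10.0% of all peaks on the chromosomes.

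Long stretches had no peak at all. Between neighbouring peaks there were 15 gaps of over 1 Mb, 42.6 Mb in all, and none of them lay in the distal block, where the longest gap was 245 kb. The longest, of 13.34 Mb, spanned the centromere and the variable band from 33348638 to 46692582, and all 5 peaks of 16q11.2 lay beyond it. The next, of 7.03 Mb, ran from 58768459 to 65797446 in 16q21, the darkest-staining band of the chromosome and the band of the cadherin genes CDH5, CDH8 and CDH11. That band had 37 peaks before the gap, in its first 1.37 Mb, and 12 after it. In 16p13.3 all 234 peaks lay in the first 5.15 Mb, and a gap of 3.58 Mb followed, which reached into 16p13.2. The band 16p13.3 holds both the alpha-globin cluster and RBFOX1, a neuronal splicing factor gene. In 16q23.1, the band of the oxidoreductase gene WWOX, all 28 peaks lay in the first 4.03 Mb, and a gap of 2.91 Mb followed, from 78133797 to 81039971. Gaps of this kind are read from the list alone: whether reads could be placed there was not measured.

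The boundaries of the rule fell in thinly filled places. The last peak before the arm boundary, at 33347745 to 33348638, lay 3252 kb from it with a total of 2840, and the first after it, at 46692582 to 46693314, lay 10093 kb away with a total of 11573. At 84 Mb, the last peak outside the block, at 83777943 to 83778761, had a total of 14509, and the first inside, at 84047529 to 84048227, a total of 8422. The bins from 82 to 84 Mb held 1 peak each.

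The strongest peaks were spread over both arms. The 10 with the highest total signal held 10.2% of the signal of the chromosome. Of them, 4 lay in the block, 4 in the q arm below it and 2 in the p arm, and they ranked between 22 and 217 in the list. Among the 100 strongest, 36 lay in the block, 37 in the p arm and 27 in the q arm below the block. These parts held 29.4%, 43.7% and 26.9% of all peaks of the chromosome.

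The strongest peak stood in 16q24.3, at 89039087 to 89046424, with a total of 274168, a length of 7337 bp and a maximum of 247. It was 1 of 8 peaks within 31.3 kb. The band also holds CBFA2T3, the co-repressor gene. The block's other leading peaks lay in 16q24.1, the band of IRF8. The peak at 85643591 to 85650893 had a total of 171070 over 7302 bp with a maximum of only 103. The one at 85784691 to 85790423 had 145431. The peak at 85088062 to 85090486 was of another shape, with a total of 137535 in 2424 bp and a maximum of 532, the highest of the chromosome. The next highest maximum was 299.

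Leading peaks of the rest of the chromosome lay in 3 bands. In 16p11.2, the band of ITGAL, ITGAM and ITGAX and of SPN, the leukocyte sialophorin CD43, the peak at 29671990 to 29678695 had a total of 176731 over 6705 bp and ranked 2 on the chromosome. A compact peak of this band at 30668947 to 30670734 had 107876 in 1787 bp. In 16q21 the peaks at 57573824 to 57578898, at 66553443 to 66560142 and at 57722085 to 57725821 had totals of 160815, 149143 and 144530. That band holds ADGRG1, ADGRG3 and ADGRG5, adhesion receptor genes of leukocytes. In 16q22.1, the band of CBFB and of CTCF, the insulator protein gene, the peak at 70778384 to 70785946 had a total of 107034. It was the longest of the chromosome, at 7562 bp, with a maximum of 83 that ranked 74 on the chromosome. A further peak of the band, at 67878960 to 67881851, had that maximum of 299 with a total of 88015. Genes are named here by shared band alone, and their distance to the peak was not measured.

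**Figure D4:**
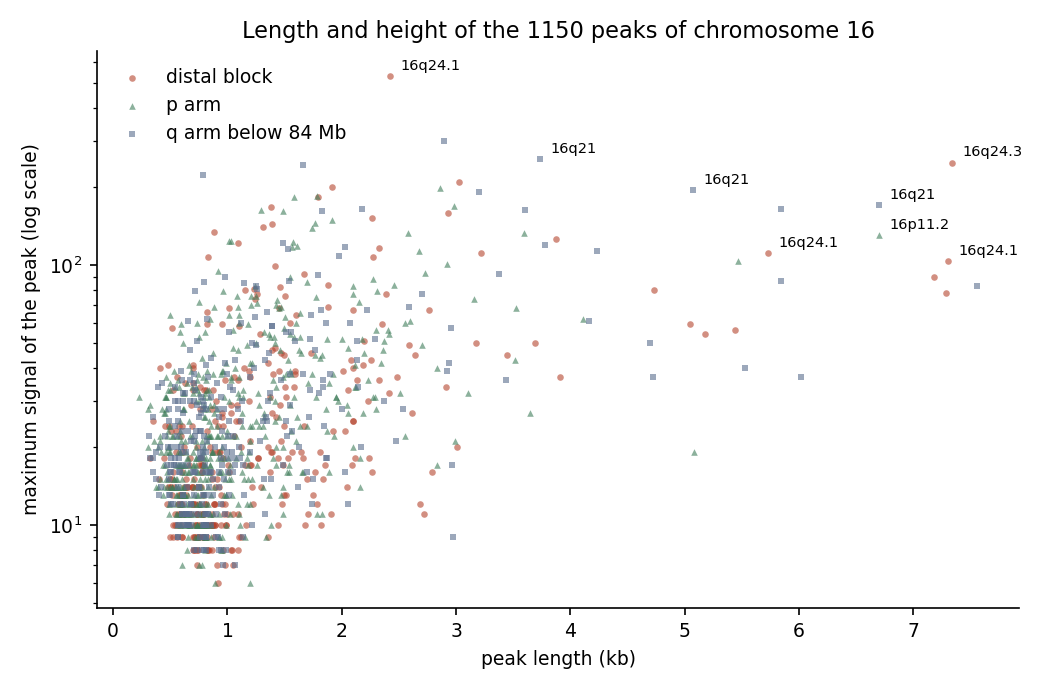
Length (kb) and maximum signal (log axis) of the 1150 peaks of chromosome 16, with the distal block in red circles, the p arm in green triangles and the q arm below 84 Mb in blue squares; the 8 strongest peaks carry the name of their band. The peak with the highest maximum, 532, is 2424 bp long, and those of over 7 kb have maxima between 78 and 247.

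Length and height were only loosely tied. Across the 1150 peaks, Spearman's rho between length and total signal was 0.793 and between length and maximum signal 0.456, as a description of peaks that share both libraries. Among peaks under 1.5 kb, the tallest stood in 16q22.1 at 66906839 to 66907624, with a maximum of 222 in 785 bp. It was followed by 90075025 to 90076406 in 16q24.3 (maximum 167) and 30381653 to 30382945 in 16p11.2 (maximum 162). Another tall and short peak, at 70461521 to 70463180 in 16q22.1, reached 241 in 1659 bp, with a total of 106203. The peaks of over 7 kb included the peak at 88763563 to 88770854 in 16q24.3 (total 96136, maximum 78) and that at 85409943 to 85417122 in 16q24.1 (total 89017, maximum 90). Long peaks also stood outside the block, such as 81510884 to 81516730 in 16q23.2 (5846 bp, total 87285) and 3626546 to 3632017 in 16p13.3 (5471 bp, total 85485). The strongest peak of 16p13.3, at 1700775 to 1703355, had a total of 93525, so no peak of that crowded band was among the 10 strongest. In the fullest bin of the short arm, 0 to 1 Mb, the strongest was at 133806 to 136725 with a total of 63935.

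Many peaks stood in runs. On chromosome 16, 802 of 1150 peaks (69.7%) had another within 10 kb, against 61.4% of all peaks on the chromosomes. In the block it was 272 of 338 (80.5%), against 530 of 812 (65.3%) in the rest. The first 6.355 Mb of the short arm, a stretch as long as the block, came close to it with 186 of 234 (79.5%). Runs that join neighbours with gaps of at most 10 kb and hold at least 8 peaks took 215 peaks of the chromosome (18.7%), where 14.1% of all peaks stood in such runs. The share was 34.3% in the block and 12.2% in the rest, which includes the first 6.355 Mb of the short arm with 21.4%. The longest run, of 38 peaks in 146 kb at 88742578 to 88888263, was in 16q24.3, and peaks covered 40.3% of it. In this band, within 200 kb of its limit, lie PIEZO1, a mechanically gated ion channel gene, CDT1, a replication licensing factor gene, and APRT, an adenine salvage enzyme gene. The next runs were of 16 peaks at 85546423 to 85606330 in 16q24.1, with a summed signal of 305605, and of 15 at 575581 to 643551 in 16p13.3, with 145478. Runs of 13 and 12 peaks followed in 16q24.3, at 90061364 to 90100519 and at 89233027 to 89268404. Outside the block and 16p13.3, the largest runs were of 11 peaks in 16p11.2 (31105920 to 31154253), of 10 in 16q12.1 (50299085 to 50344325) and of 10 in 16q21 (57700889 to 57729649). The run of 16q21 was the most filled of these, with 52.1% of its length in peaks and a summed signal of 236521. Peaks with no other within 100 kb numbered 62 (5.39%), against 8.08% over all chromosomes, and 6 of them lay in the block.

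The distal bands had many peaks for the number of their genes. Bands were counted by their hg19 limits, and protein-coding genes by the limits of the same bands in GRCh38, in 19 bands of like length in both builds. The bands 16q24.1 to 16q24.3 had 336 peaks and 81 protein-coding genes, or 4.15 peaks per gene, against 748 peaks and 701 genes, or 1.07 per gene, in the other 16. Gene density was 12.98 per Mb in the distal bands and 11.06 in the others. The distal bands lie in the block that was set with its peak density known, so their peaks per gene are a description. On the other chromosomes there were 0.990 peaks per protein-coding gene. The band 16q24.1, with 26 genes, had 124 peaks (42.8 per Mb, 4.77 per gene). The band 16q24.2, with 18 genes, had 62 (38.8 per Mb, 3.44 per gene), and 16q24.3, with 37 genes, had 150 (90.6 per Mb, 4.05 per gene). Bands with as many genes or more had fewer peaks per gene: 16p13.3 had 234 peaks for 202 genes (1.16), 16q22.1 had 117 peaks (1.16 per gene) and 16p11.2 had 136 for 124 (1.10). Among the small bands, 16q22.3 had 4 peaks and 1 gene. The lowest was 16q22.2, the band of HP, the haptoglobin gene, with 7 peaks for 22 genes (0.318). Across the 19 bands, peaks per Mb and genes per Mb had a Spearman's rho of 0.684, as a description, since neighbouring bands are not independent.

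**Figure D5:**
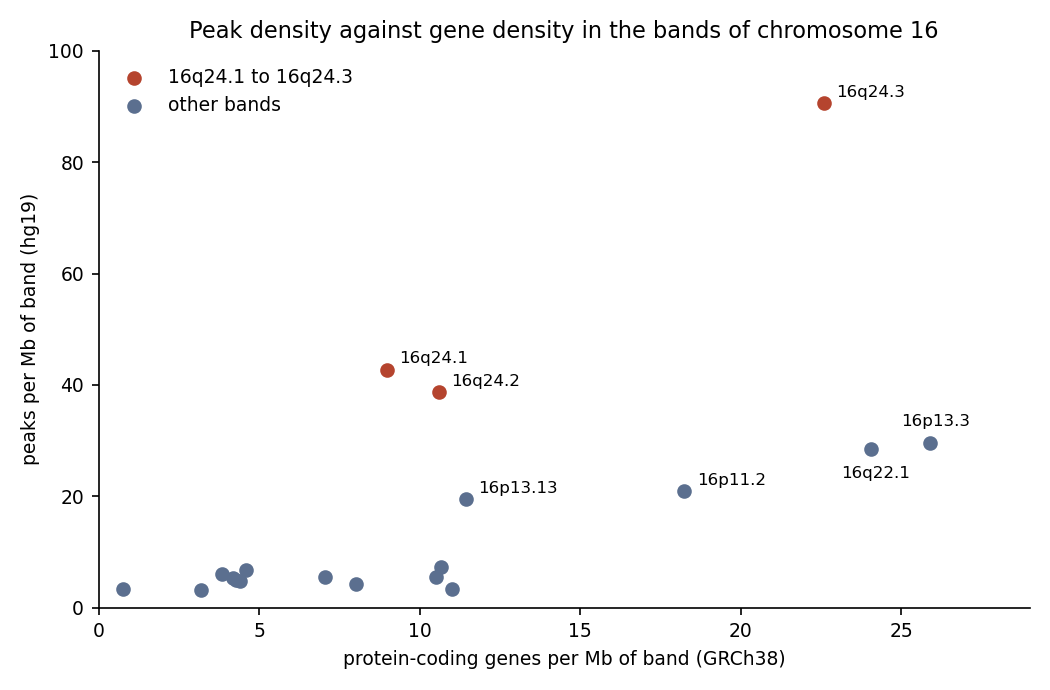
Peaks per Mb (hg19) against protein-coding genes per Mb (GRCh38) in 19 bands of chromosome 16, with 16q24.1 to 16q24.3 in red and the other bands in blue. The 3 distal bands stand at 38.8 to 90.6 peaks per Mb, above the bands of equal or higher gene density. They lie in the distal block, which was set with its peak density known.

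The strength of peaks also differed among bands. In 16p11.2 the median total signal was 8383 and 21 of 136 peaks (15.4%) were at or above the 90th percentile, against 10.0% of all peaks on the chromosomes. In 16p13.3 the median was 5429 and 12 of 234 (5.13%) were that strong. In 16q24.2, the band of ZFPM1, a cofactor of GATA factors also named FOG1, the median was 4393. There 6 of 62 peaks (9.68%) were that strong, near the share of all peaks. In 16q24.3 the median was 5760 with 19 of 150 peaks (12.7%) that strong, and in 16q24.1 it was 7104. The bands that stain negative or palest held 966 peaks at 23.14 per Mb, against 179 at 4.94 per Mb in the darker bands.

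Genes of the lists lay in bands of very different density. The lists hold 78 genes, all matched by symbol in the gene table, of which 62 lay in the bands used and 8 of those within 200 kb of a band limit. The median protein-coding gene of the bands used lay in a band with 20.9 peaks per Mb, and 384 of 782 genes lay in a denser one. The list of myeloid and hematopoietic regulators holds 10 genes in 7 bands, and genes that share a band carry the same value. It is broad, and CTCF, CREBBP, GSE1 and SALL1 are not specific to blood cells. Of the 10 genes, 8 lay in a denser band and the median was 29.1 per Mb. These were CBFA2T3 (16q24.3, 90.6 per Mb), IRF8 and GSE1 (16q24.1, 42.8), ZFPM1 (16q24.2, 38.8), the acetyltransferase gene CREBBP (16p13.3, 29.6), and CBFB, CTCF and the NFAT factor gene NFATC3 (16q22.1, 28.5). The others were MAF, a factor of macrophages and lymphocytes (16q23.2, 6.80), and SALL1, a developmental zinc finger gene (16q12.1, 5.00).

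Leukocyte surface and phagocyte genes lay mostly in 16p11.2. Of 13 in the bands used, 7 lay in 16p11.2, which is the band of the median gene itself, so they were level with it, and only CYBA lay in a denser band. CYBA encodes a subunit of the phagocyte NADPH oxidase and lies in 16q24.2, near its limit with 16q24.3. The integrin genes ITGAL, ITGAM, ITGAX and ITGAD lay in 16p11.2 (20.9 per Mb), as did SPN and CORO1A, an actin regulator of leukocytes. PLCG2, a phospholipase of immune receptor signalling, lay in 16q23.3 with 4.80 per Mb. Of 9 innate and immune signalling genes, only MEFV, the pyrin gene, lay in a denser band (16p13.3). CIITA, SOCS1 and LITAF lay in 16p13.13 (19.5 per Mb, 41 peaks), and NOD2, a sensor of bacterial cell walls, and CYLD, a deubiquitinase, in 16q12.1 (5.00). The chemokine genes CX3CL1, CCL17 and CCL22 lay in 16q21 (5.27), near its limit with 16q13.

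The remaining lists also hold genes that are not specific to myeloid cells. Of 11 housekeeping and metabolism genes, 9 lay in a denser band and 8 in the distal bands, where 81 of 782 protein-coding genes (10.4%) lay. The median of 90.6 per Mb is the value of 1 band, 16q24.3, which 6 of the 11 genes share. These are RPL13, a ribosomal protein gene, FANCA, a DNA repair gene, APRT, CDT1 and 2 genes that are not housekeeping genes in the usual sense, the ion channel gene PIEZO1 and TUBB3, a tubulin gene best known from neurons. Of 13 genes of other tissues, 6 lay in a denser band, among them FOXF1, FOXC2 and FOXL1, forkhead factors of mesenchyme, in 16q24.1 beside IRF8. The 6 globin and erythroid genes share 16p13.3 and so count as 1 band. The 10 metallothionein genes lay in 16q13, whose length differs between the builds, and were not linked. These are values of whole bands with many genes in each, and no peak is assigned to a gene. The lists were chosen with earlier results of these data known.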

How the data were processed

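CUT&Tag on NB4 cells used an antibody to PML-RARA, a commercial kit and paired-end sequencing, with 2 replicates, per the labels' protocols. Trimmomatic, Bowtie2, SAMtools, bedtools and SEACR, with the build hg19, are named in the submitters' processing notes; how they were set, and how replicates were merged, is not given in the sources used here. In the deposited list, 2 columns headed width and peak were read as the total and the maximum signal of the authors' peak caller. The headers do not say this. The column headed width is above the length for each of the 20085 peaks, and for 0 of them above the length times the maximum. A scaling to depth is not given either. The authors' signal describes each peak and was compared only inside this list.

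Peaks were placed by their midpoints, and starts are printed as listed, perhaps counted from 0. Lengths leave out centromeric, variable and stalk bands unless stated; the 5 peaks of 16q11.2 were still counted. Bands came from circlize 0.4.16, chromosome lengths from GenomeInfoDb 1.38.1, and genes and promoters from RefSeq tables on GRCh38, matched by band name without converting coordinates and with none of their positions printed. Bands whose lengths in the builds differ by over 10% (16p12.1, 16q12.2 and 16q13) and the centromeric and variable bands were not linked to genes. Python 3.11.15, pandas 2.3.3 and scipy 1.17.1 were used. The functions for runs, merging, counted lengths and median intervals were checked on small made-up inputs with known answers. The rule for named peaks takes the 10 strongest by total signal, the 10 longest, the 5 of highest maximum, the strongest of each of the 10 fullest bins and the 5 largest runs, not all of which are printed. Smaller runs, the tallest narrow peaks, the boundary peaks and the promoters shown were added after their values had been seen. Members, lists and alternatives were chosen with earlier results of these data known. The submitters' labels do not say whether replicates came from separate cultures.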

Additional observations from a re-analysis of the deposited data

How the results depend on the processing

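Of 28 alternative settings, 16 left the value within its 95% exact binomial interval (or, for medians, the interval from order statistics, and for the longest run within 1.5-fold), 10 moved it further and 2 turned its direction. The intervals cover counting error only and treat peaks as independent, which peaks in runs are not. Some of the 28 swap the measure, such as summed signal or covered bases for peak counts, and are held against the interval of the reported measure. Smaller bins nested in the reported ones, and wider gaps in runs, can only raise their shares. The p arm to q arm ratio of peaks per Mb turned to 1.14 with whole lengths and to 1.05 with peaks within 1 kb merged, against 0.974. Chromosome 16 over the other chromosomes was 1.98 with whole lengths, against 2.13. The block over the rest of the chromosome was 3.50 and 4.01 with a start at 82 and 83 Mb, against 4.69. The share of peaks in the fullest 10 Mb was 55.8% with bins of 0.5 Mb and 52.6% with bins shifted by 0.5 Mb, against 49.6%. The share in runs of at least 3 was 40.2%, 69.5% and 83% with gaps of at most 5, 20 and 50 kb, against 54.8%, and the longest run held 19 peaks at 5 kb and 73 at 50 kb, against 38. With the other 16 settings, such as only peaks at or above the median total signal of the list, each value stayed within that range.

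No paired analysis was possible because the list merges both replicates and holds 1 group, and leaving out a replicate could not be done for the same reason. Depth is unknown, and signal below the threshold of the list was not measured.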
